A study of Homo sapiens with 6 samples.

Results

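The 7 genes described here are MT1F, MT1X, MT2A, SLPI, TTR, S100P and MYO6, out of 14812 genes measured in C4-2 cells. They were chosen by name because their changes after depletion of the DNA repair kinase DNA-PKcs and under its inhibitor NU7441 differed in sign, or because depletion alone moved them. The intensities on all 6 arrays made that choice, so the differences between groups are given for these genes as a description, with standard errors and without a test. All 7 were found, each with 1 probeset. For 6 of them the 2 knockdown arrays were higher than the other 4 arrays, by 1.60-fold to 6.53-fold against control, and for MYO6 they were lower. Among all genes 23.4% had both knockdown arrays above the controls and 38.2% below, and 32.9% and 19.6% had them above and below the NU7441 arrays. Under NU7441 MT1X, SLPI and TTR were lower than in controls, MYO6 was higher, and MT1F, MT2A and S100P differed from control by at most 0.17 on the log2 scale. Among all genes 22.7% had both NU7441 arrays above the controls and 47.3% below, 3.19% were above control after knockdown and below it under NU7441 without overlap, as MT1X, SLPI and TTR were, and 1.61% the reverse, as MYO6 was. These shares are background to a choice made on the same arrays.

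C4-2, a descendant of the LNCaP line, is an established line of castration-resistant human prostate cancer, and all cells here were kept in medium that contains hormones. The 6 Affymetrix Human Gene 2.0 ST arrays hold 2 biological replicates each of DMSO-treated controls, of cells given the small molecule NU7441 at 1 µM for 24 h, which blocks the kinase's ATP site, and of cells transiently depleted of DNA-PKcs with a pool of siRNAs against its gene, PRKDC, for 96 h. The labels mention a control siRNA pool but describe the control arrays only by their vehicle, so transfection, the longer time and the loss of the protein cannot be told apart in the knockdown group. PRKDC was not among the named probesets and its level was not analysed here, so the labels alone define that group. The protocols do not say whether replicates came from separate days, and a p-value below measures only the spread between these cultures. NU7441 replicate 1 stood apart, with 3797 probesets within 0.01 of the lowest value against 1471 in replicate 2 and 444 to 1206 on the other 4 arrays, and a correlation between NU7441 replicates of 0.937 against 0.988 in controls and 0.970 after knockdown. Without it the NU7441 log2 fold changes were −0.85 for MT1X, −0.54 for SLPI, −0.69 for TTR, 0.54 for MYO6, 0.09 for MT2A and 0.13 for S100P, and that of MT1F changed sign to 0.40.

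Metallothioneins are small cysteine-rich proteins that bind zinc and copper. Their human genes lie side by side on chromosome 16, and the transcription factor MTF1 induces them when zinc is in excess, through metal response elements in their promoters. SLPI is a secreted inhibitor of neutrophil elastase and related serine proteases, made by mucosal epithelia. TTR, or transthyretin, carries thyroxine and, with retinol-binding protein, vitamin A, and is made mainly by liver and choroid plexus. S100P is a calcium-binding EF-hand protein found in several carcinomas that binds the membrane linker ezrin and the receptor AGER. MYO6 is the myosin that moves towards the minus end of actin filaments, in endocytosis and autophagy, and its gene is highly expressed in prostate cancer.

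The promoters of the metallothionein genes are shown because 3 of the 7 genes belong to that family and lie in 1 cluster. The other measured family members did not pass the test after knockdown on the values as deposited. After median centring of the arrays 1 of them, MT1G, did. The table of RefSeq promoters (GRCh38.p14) held 4 of the 7 genes, MT1X, MT2A, S100P and MYO6, and of the other metallothioneins MT1B, MT1H and MT4. Each line gives the 250 bases before the annotated start, on the plus strand and 5′ to 3′, with matches to the core of the metal response element on either strand in capitals. The core was searched as TGCACNC or TGCGCNC. MT1X (chr16:56682220-56682469) and MT2A (chr16:56608334-56608583) are genes of the set described here, and MT1B (chr16:56651636-56651885) and MT1H (chr16:56669564-56669813) are relatives from the same cluster that passed in no comparison.

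MT1X: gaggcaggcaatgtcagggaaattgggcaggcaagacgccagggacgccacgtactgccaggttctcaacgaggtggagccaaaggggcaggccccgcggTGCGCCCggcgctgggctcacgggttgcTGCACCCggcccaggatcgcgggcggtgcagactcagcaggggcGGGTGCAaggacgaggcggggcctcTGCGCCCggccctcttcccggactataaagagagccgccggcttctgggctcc
MT2A: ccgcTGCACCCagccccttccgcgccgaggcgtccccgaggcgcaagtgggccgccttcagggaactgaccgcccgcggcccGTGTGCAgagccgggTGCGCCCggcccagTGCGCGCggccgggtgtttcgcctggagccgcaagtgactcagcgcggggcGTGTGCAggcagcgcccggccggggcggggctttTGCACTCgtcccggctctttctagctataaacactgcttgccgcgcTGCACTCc
MT1B: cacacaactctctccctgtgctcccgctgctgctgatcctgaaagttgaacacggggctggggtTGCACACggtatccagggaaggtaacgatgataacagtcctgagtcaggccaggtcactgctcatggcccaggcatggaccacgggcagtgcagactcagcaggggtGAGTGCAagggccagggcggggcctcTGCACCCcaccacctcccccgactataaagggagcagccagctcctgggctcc
MT1H: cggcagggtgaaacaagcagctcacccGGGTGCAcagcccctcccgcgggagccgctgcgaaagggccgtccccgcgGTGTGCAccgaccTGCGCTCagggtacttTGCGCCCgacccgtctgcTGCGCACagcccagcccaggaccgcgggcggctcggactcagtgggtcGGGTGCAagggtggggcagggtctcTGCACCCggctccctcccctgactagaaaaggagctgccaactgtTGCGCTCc

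In the 300-base window from 250 bases before to 50 after the start, MT1X held 4 matches, MT2A held 8, MT1H held 8, MT1B held 3 and MT4 held 3. Of all 35116 promoters in the table, 29.6% held at least 1 match, 2.3% at least 3, 0.601% at least 4 and 0.0199% at least 8. MT1X, MT1B and MT1H each held a match that began 53 bases before the start, and 1 of the 8 matches of MT2A lay after it, outside the line shown. The window of MYO6 held 1 match, 46 bases before the start, and that of S100P none. The antioxidant response core TGACNNNGC, held by 13.3% of promoters, was present once in MT1X, MT2A and MT1B, and the AP-1 site TGANTCA, held by 7.71%, once in MT2A and MT1B. In MT2A these 2 matches began at the same base, 104 before the start, and overlap. A TATAAA box, held by 11.5%, was present once in MT1X, MT2A, S100P, MT1B and MT4. Matches to these letters describe the windows and do not mark bound sites.

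MT1F was the gene with the largest difference after knockdown. Its intensity was 82.8 and 97.8 in controls, 53.9 and 119 under NU7441, and 607 and 569 after knockdown. The knockdown arrays stood far above the other 4, and the NU7441 arrays lay on either side of the controls. The knockdown mean of 588 ± 26.9 (SD, n = 2) was 6.53-fold the control mean of 90.3 ± 10.6, a log2 fold change of 2.71 ± 0.31 (SE, n = 2 per group, as for all standard errors below). The 2 NU7441 arrays differed from each other 2.20-fold, the widest spread of any of the 7 genes in any group. Their difference from control was −0.17 ± 0.31, and it was 0.40 without NU7441 replicate 1 and −0.74 without replicate 2, so no direction is given for it. The choice of MT1F as moved by knockdown alone thus depends on NU7441 arrays that disagree.

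MT1X and MT2A had a similar size of difference after knockdown and parted under NU7441. MT1X was at 624 and 736 in controls, 421 and 376 under NU7441, and 1031 and 1135 after knockdown. The 3 groups did not overlap, with NU7441 lowest and knockdown highest. The log2 fold change was 0.67 ± 0.12 for knockdown and −0.77 ± 0.12 for NU7441 against control, and the treatments differed 2.72-fold from each other (1.44 ± 0.12). MT2A, usually the most abundant metallothionein of human cells, was at 840 and 881 in controls, 1006 and 914 under NU7441, and 1392 and 1367 after knockdown. Both knockdown arrays of MT2A were above the rest, while the NU7441 arrays lay just above the controls. Its log2 fold change was 0.68 ± 0.08 for knockdown and 0.16 ± 0.08 for NU7441. The NU7441 value moved between 0.06 after quantile normalization and 0.48 after median centring of the arrays, where MT2A was also called higher under NU7441, so that the choice of MT2A as moved by knockdown alone depends on scaling.

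SLPI was at 362 and 409 in controls, 249 and 264 under NU7441, and 865 and 1006 after knockdown. The groups did not overlap, and the order was NU7441, control, knockdown, as for MT1X. SLPI was 2.43-fold higher after knockdown (1.28 ± 0.13) and lower under NU7441 (−0.59 ± 0.13), so that the treatments differed 3.64-fold. TTR had the same order at a lower intensity. It was at 181 and 184 in controls, 121 and 113 under NU7441, and 316 and 371 after knockdown, again without overlap. The log2 fold change of TTR was 0.91 ± 0.16 for knockdown and −0.64 ± 0.16 for NU7441, a difference of 1.55 ± 0.16 between the treatments. The NU7441 values of SLPI and TTR depended on scaling in size but not in sign, and were −0.27 and −0.32 after median centring, where both lost the NU7441 call behind the choice.

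S100P, unlike SLPI and TTR, overlapped with controls under NU7441. Its intensity was 82.1 and 74.7 in controls, 81.0 and 85.4 under NU7441, and 211 and 168 after knockdown. The control and NU7441 arrays overlapped, and both knockdown arrays were above them. The log2 fold change was 1.26 ± 0.20 for knockdown and 0.09 ± 0.20 for NU7441.

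MYO6 ran the other way from the other 6 genes. It was at 1193 and 1160 in controls, 1599 and 1709 under NU7441, and 724 and 726 after knockdown. The groups did not overlap, with knockdown lowest, and the 2 knockdown arrays nearly equal. The log2 fold change was −0.70 ± 0.08 for knockdown and 0.49 ± 0.08 for NU7441, and the treatments differed 2.28-fold. Median centring gave −0.52 and 0.81, and quantile normalization −0.73 and 0.41.

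**Figure D1:**
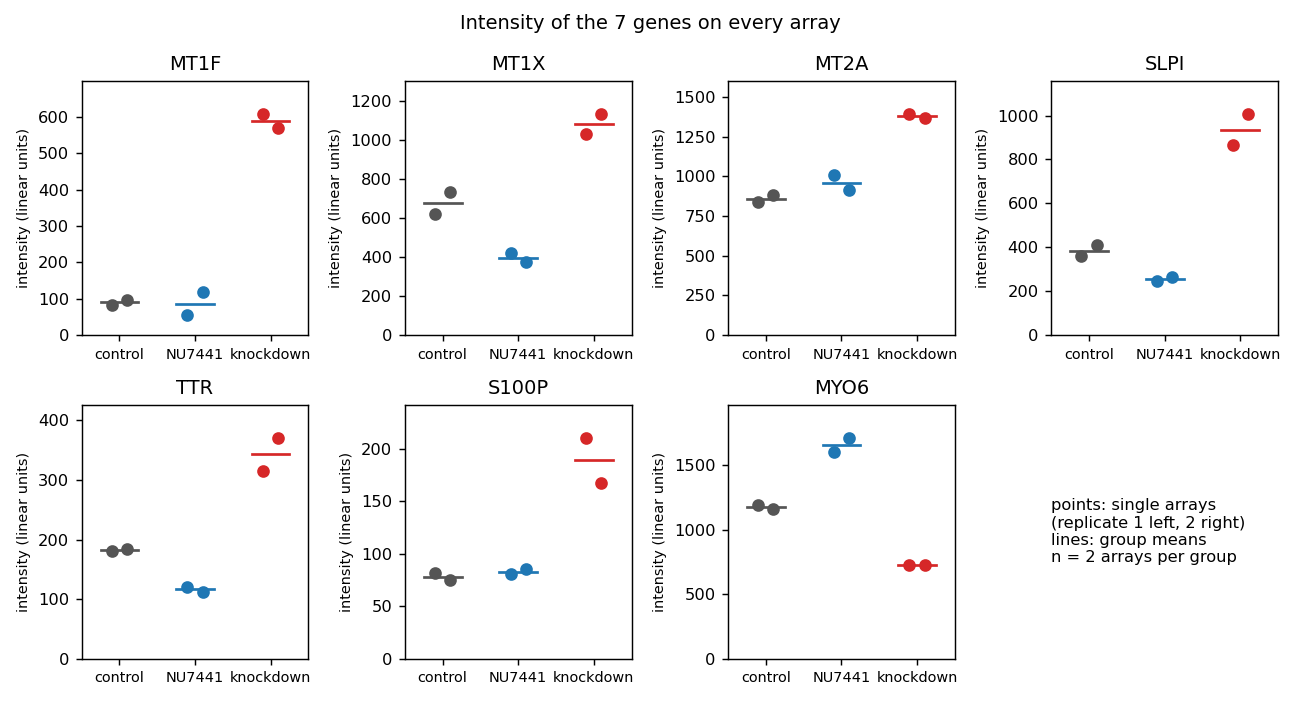
Intensity in linear units of each of the 7 genes on every array, with points for single arrays, lines for group means and n = 2 arrays per group. The knockdown points lie above all others for 6 genes and below all others for MYO6, and the NU7441 points of MT1F, at 53.9 and 119, lie on either side of the control points.

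Among themselves, MT1X and TTR were the closest pair, with a root mean square difference of 0.17 between their log2 values over the 6 arrays after each was centred on its control mean. SLPI and TTR followed at 0.23, and MT2A and S100P were 0.36 apart. MT1F and MT1X, neighbours in 1 cluster, were 1.28 apart. MYO6 and MT1F were the most distant pair, at 2.03.

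The calls that set the choice came from limma's moderated test, adjusted by Benjamini-Hochberg over all 14812 genes at a threshold of 0.05. Knockdown against control called 114 genes, 0.77% of those tested, of which 0.284% were higher and 0.486% lower. NU7441 against control called 33.2%, 10.8% higher and 22.4% lower, and knockdown against NU7441 called 8.67%, 5.83% higher and 2.84% lower. All 7 genes were called in the first and the last comparison, on the arrays that chose them. Of the 114 genes called after knockdown, 4 were called under NU7441 with the opposite sign, 0.027% of all genes, and these were MT1X, SLPI, TTR and MYO6. A further 12 (0.081%) were not called under NU7441, among them MT1F, MT2A and S100P. The other 98 (0.662%) were called under NU7441 with the same sign. Both comparisons use the same control arrays. Knockdown was called against both control and NU7441, with fitted values of opposite sign against control, for 7 genes (0.0473%), which were MT1F, MT1X, SLPI, TTR, MYO6, GSTA1 and TARP. For MT1F and TARP that sign rests on NU7441 values within their standard error (−0.17 ± 0.31 and −0.12 ± 0.21) and gives no direction. GSTA1 was at −0.29 ± 0.20 under NU7441 and was not called there either (adjusted p = 0.288 in limma). Among genes called under NU7441 with the opposite sign, TTR and MT1X lay just inside the threshold for knockdown (log2 fold changes of 0.91 and 0.67), and LINC00161, a noncoding RNA (0.79), and AGR2, a protein disulfide isomerase of secretory epithelia (1.20), just outside it.

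The 9 other genes called after knockdown alone were higher in 6 cases and lower in 3, and the difference between the treatments itself passed for 7 of them. The higher ones were TARP (1.46 ± 0.21), GSTA1, a glutathione transferase (1.40 ± 0.20), SYT4, a synaptotagmin (0.95 ± 0.14), ARRDC3, an arrestin-domain protein (0.93 ± 0.16), TIMM8B, a chaperone of mitochondrial import (0.68 ± 0.11), and ELOVL5, a fatty acid elongase (0.49 ± 0.08). The lower ones were FRAS1 (−1.28 ± 0.23), LUC7L2, a splicing factor (−0.79 ± 0.13), and CDK4, the G1 cyclin-dependent kinase (−0.66 ± 0.12). For CDK4 and LUC7L2 the difference between the treatments did not pass (adjusted p = 0.116 and 0.0623 in limma). All 9 were chosen by the same contrasts as the 7 genes. TARP and GSTA1 belong to families of similar sequence, as do the metallothioneins, and a probeset may read related copies.

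**Figure D2:**
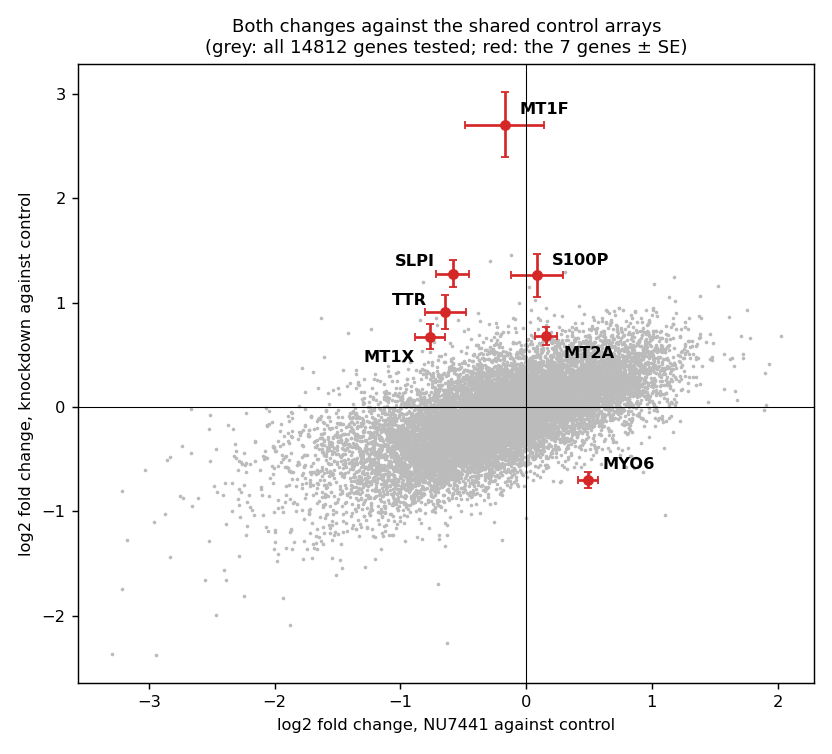
Log2 fold change of NU7441 against control on the horizontal axis and of knockdown against control on the vertical axis, with 14812 genes in grey and the 7 genes in red with standard errors. SLPI, TTR and MT1X sit at upper left, MYO6 at lower right, MT2A and S100P near a NU7441 value of 0, and MT1F at 2.71 on the vertical axis, above every other gene; the axes share their control arrays.

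Of the other 8 measured members of the metallothionein family, 0 passed limma's test after knockdown, with 1 higher and 1 lower at an unadjusted p under 0.05, and their median log2 fold change was −0.23 beside −0.09 for all genes. Of all genes 6.68% were higher and 12.9% lower after knockdown at an unadjusted p under 0.05, the background for every such count below. MT1G was at 23.5 and 22.4 in controls, 18.3 and 20.9 under NU7441, and 42.9 and 33.1 after knockdown. It was thus above control on both knockdown arrays, at 0.71 ± 0.21, without passing (adjusted p = 0.112 in limma). After median centring of the arrays, and with the compared groups alone, MT1G did pass, so its call depends on the processing. MT1M went the other way, from 37.0 and 34.9 in controls to 19.6 and 24.2 after knockdown. Its log2 fold change was −0.72 ± 0.19, without passing (adjusted p = 0.0904 in limma). With the compared groups alone MT1M passed too, as lower. The difference of MT1G between knockdown and NU7441 did pass (0.95 ± 0.21, adjusted p = 0.0266 in limma, from 0.00294 to 0.167 over the alternatives), and was lost without either control or either knockdown array. Under NU7441 MT3, the brain-enriched member, rose from 22.9 and 22.7 to 50.9 and 58.3 (1.26 ± 0.23, adjusted p = 0.00453 in limma, up to 0.0808 without a control array), and MT1M fell from 37.0 and 34.9 to 17.1 and 18.0 (−1.03 ± 0.19, adjusted p = 0.00460 in limma, 0.0528 without control replicate 1). These 3 genes are dim, and 16 is the lowest value on any array, so their fold changes may be understated. Median probeset intensity was also lower under NU7441 (24.6 and 26.0) than in controls (31.5 and 31.6). The fall of MT1M under NU7441 may therefore be overstated instead, and the part of that shift in it was not tested. MT1B, MT1E, MT1H, the MT1L pseudogene and MT4 passed in no comparison and were at or below 52.2 on every array.

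**Figure D3:**
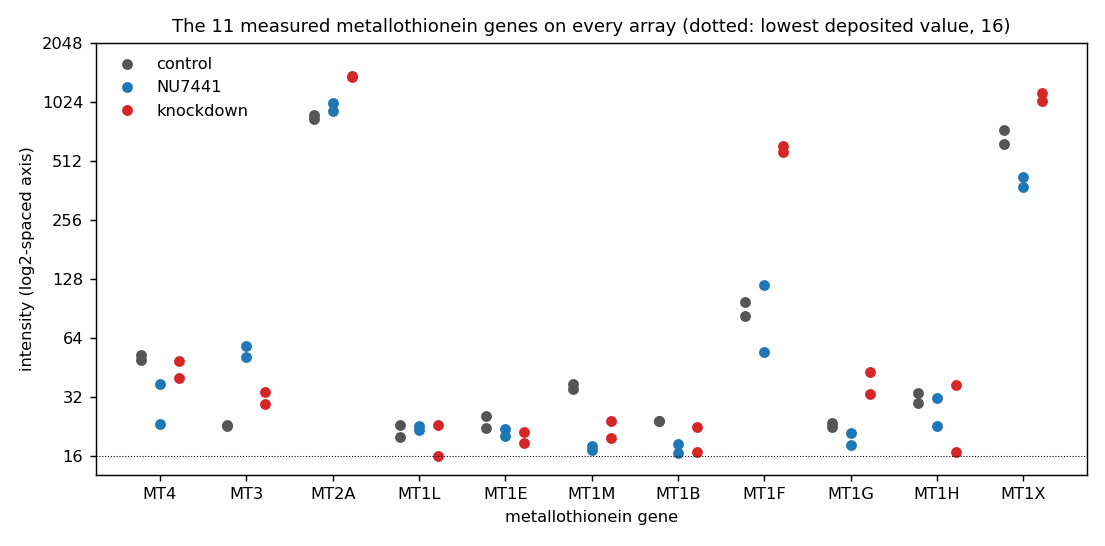
Intensity of the 11 measured metallothionein genes on every array, on a log2-spaced axis with a dotted line at 16, the lowest deposited value. MT2A, MT1F and MT1X reach 569 or more on both knockdown arrays, and the other 8 genes stay at or below 58.3 on all arrays.

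Genes related to the 7 by pathway or family were read from 12 lists. Of their 138 other measured genes, counted once each, 1 passed limma's test after knockdown, GSTA1, beside 0.77% of all genes, and the median log2 fold change was −0.11 beside −0.09 for all. GSTA1 lost that call without any 1 of the control or knockdown arrays (adjusted p up to 0.430 over the alternatives). Under NU7441 17 rose and 36 fell, beside 10.8% and 22.4% of all genes, with a median of −0.23, the same as for all genes. Those shares are the background for every count of list genes rising or falling under NU7441 below. Of the list genes named below as rising or falling under NU7441, SQSTM1, GRN, ALB, CACYBP, MYO7A and OPTN kept that call in all alternatives, and the rest lost it without 1 or either of the control arrays. Between knockdown and NU7441 10 were higher and 4 lower, beside 5.83% and 2.84% of all genes.

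In the zinc and copper list only 3 of 31 genes were measured, MTF1, CCS and ATOX1. Its zinc transporters were not among them, so zinc handling was not surveyed. MTF1, the activator of metallothionein genes, was at 128 and 130 in controls, 103 and 124 under NU7441, and 141 and 149 after knockdown. It passed in no comparison (0.17 ± 0.19 for knockdown). CCS, the copper chaperone of superoxide dismutase, rose under NU7441 (0.90 ± 0.25, adjusted p = 0.0238 in limma, and lost without either control or either knockdown array, up to 0.149) and was at 0.50 ± 0.25 after knockdown. ATOX1, another copper chaperone, passed in neither. Of 14 genes of the NRF2 and oxidative stress response, 1 rose after knockdown. The NU7441 counts were 5 rising and 3 falling, beside 10.8% and 22.4% of all genes. The list median under NU7441 was 0.42 beside −0.23 for all genes. Those that rose under NU7441 included SQSTM1, an autophagy receptor (0.98 ± 0.14), and PGD of the pentose phosphate pathway (0.73 ± 0.14), and those that fell included NFE2L2, which encodes NRF2 (−1.30 ± 0.26), and GSR, glutathione reductase (−1.08 ± 0.23). After knockdown SQSTM1 was at 0.39 ± 0.14, PGD at −0.02 ± 0.14, NFE2L2 at −0.62 ± 0.26 and GSR at −0.70 ± 0.23. In the glucocorticoid response list, 0 of 10 genes passed limma's test after knockdown (2 higher and 1 lower at an unadjusted p under 0.05), and 1 rose and 3 fell under NU7441. DUSP1, a phosphatase of MAP kinases, was at 0.92 ± 0.22 after knockdown and rose under NU7441 (0.87 ± 0.22), and PER1, a clock gene, fell under NU7441 (−1.20 ± 0.24).

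In the list of WAP-domain inhibitors and their target proteases, which also held GRN, 14 genes other than SLPI were measured. Of these 0 passed limma's test after knockdown, with 1 higher and 1 lower at an unadjusted p under 0.05. Under NU7441 1 rose and 4 fell, or 1 and 2 after quantile normalization. The one that rose was GRN, the progranulin precursor that SLPI protects from elastase. It went from 62.9 and 64.9 in controls to 193 and 241 under NU7441 (1.76 ± 0.22, adjusted p = 0.00117 in limma), and was at 104 and 142 after knockdown (0.93 ± 0.22, adjusted p = 0.0774). GRN thus stood above control in both treatments, where SLPI was lower under NU7441. Among 14 other genes of epithelial secretion and mucosal defence, 0 passed limma's test after knockdown, with 1 higher and 3 lower at an unadjusted p under 0.05. The higher one was AGR2 (1.20 ± 0.24, adjusted p = 0.0577 in limma, 0.0358 after quantile normalization and 0.0234 after median centring), at 55.4 and 64.9 in controls, 29.0 and 39.6 under NU7441, and 139 and 136 after knockdown. It fell under NU7441 (−0.82 ± 0.24, adjusted p = 0.0291 in limma, up to 0.242 over the alternatives), a call lost after quantile normalization, after median centring and without any 1 control or knockdown array. AGR2 was higher after knockdown than under NU7441 (2.02 ± 0.24, adjusted p = 0.00279 in limma, up to 0.132 without a knockdown array), as was KRT19, a simple epithelial keratin (1.07 ± 0.26, adjusted p = 0.0383 in limma, up to 0.205 over the alternatives and lost after quantile normalization). TFF3, a trefoil factor of mucosal surfaces, fell under NU7441 (−1.13 ± 0.26) and was at −0.64 ± 0.26 after knockdown. For the whole list the NU7441 counts were 0 rising and 4 falling, or 2 and 2 after quantile normalization.

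Of the genes of thyroxine and retinol transport, 4 others were measured, and 0 passed limma's test after knockdown, with 3 lower at an unadjusted p under 0.05. ALB, serum albumin, which also carries thyroxine, fell under NU7441 (−1.56 ± 0.25, adjusted p = 0.00282 in limma) and was at −0.61 ± 0.25 after knockdown, against 0.91 for TTR. Of the 20 other S100 family genes 0 passed limma's test after knockdown (0 higher and 5 lower at an unadjusted p under 0.05), and 0 rose and 4 fell under NU7441, or 2 fell after quantile normalization and 0 after median centring. S100A6 was the highest of them after knockdown, at 0.21 ± 0.26, against 1.26 for S100P. Of 8 S100 partners 0 passed after knockdown (0 higher and 2 lower at an unadjusted p under 0.05). EZR, ezrin, was at −0.95 ± 0.32 after knockdown and fell under NU7441 (−1.13 ± 0.32, adjusted p = 0.0243 in limma, 0.162 at most and lost after median centring), and AGER was at 0.46 ± 0.25 and −0.30 ± 0.25. CACYBP, a calcyclin-binding protein, fell under NU7441 from 980 and 1005 to 361 and 430 (−1.33 ± 0.11, adjusted p = 2.84e-04 in limma).

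Of the 21 other unconventional myosins 0 passed limma's test after knockdown, with 0 higher and 7 lower at an unadjusted p under 0.05, and under NU7441 1 rose and 8 fell, beside 10.8% and 22.4% of all genes. After quantile normalization the NU7441 counts were 2 and 5, and after median centring 3 and 5. MYO1C, a short-tailed myosin of membrane tension, was the one that rose (0.80 ± 0.16), and MYO7A, a stereocilia myosin, fell most (−1.44 ± 0.22). After knockdown MYO1C was at 0.25 ± 0.16 and MYO7A at −0.45 ± 0.22. Of 9 cargo adaptors of MYO6, 4 rose and 2 fell under NU7441, and 0 passed limma's test after knockdown (1 higher and 2 lower at an unadjusted p under 0.05). OPTN, an autophagy receptor that binds MYO6, went from 35.5 and 37.8 in controls to 110 and 108 under NU7441 (1.57 ± 0.23, adjusted p = 0.00206 in limma), and was at 37.1 and 45.7 after knockdown (0.17 ± 0.23). TOM1L2 rose (1.08 ± 0.23) and SYNJ1 (−1.24 ± 0.24) and CLINT1 (−1.17 ± 0.20), both of clathrin-coated vesicle traffic, fell under NU7441. OPTN was lower after knockdown than under NU7441 (−1.40 ± 0.23, adjusted p = 0.0103 in limma, 0.159 at most without a knockdown array), as MYO6 was.

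**Figure D4:**
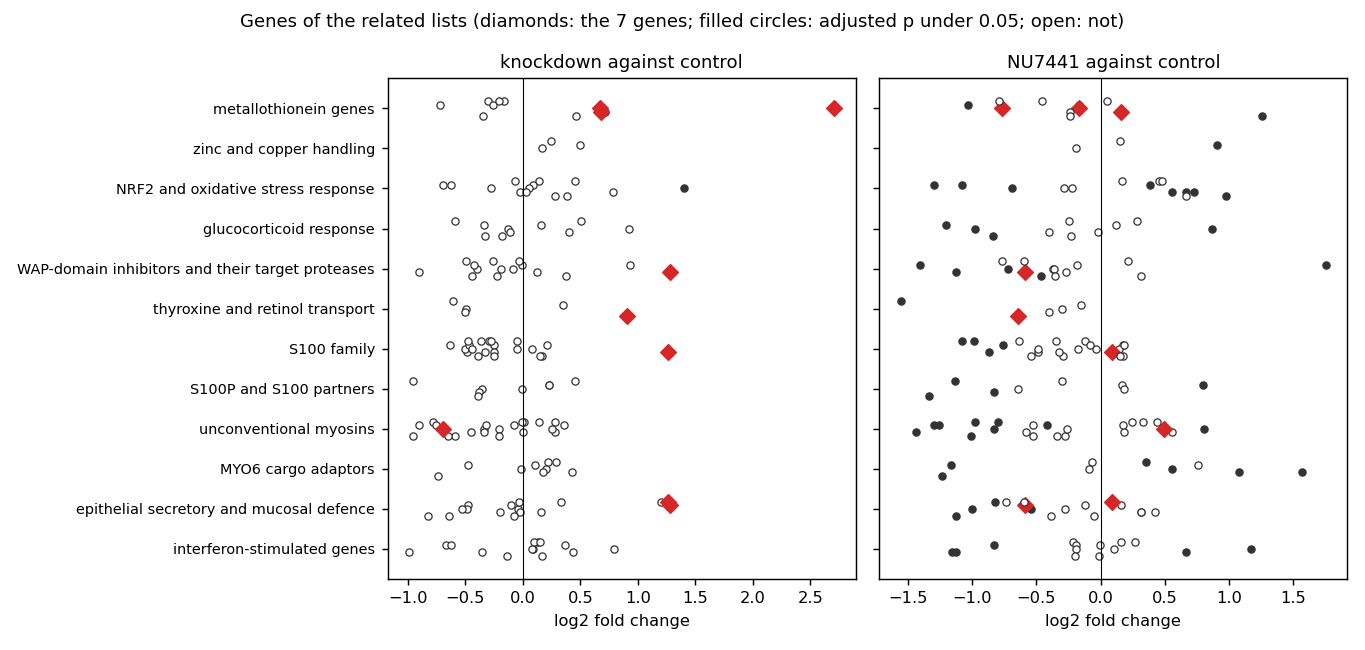
Log2 fold changes of the measured genes of 12 related lists, after knockdown in the left panel and under NU7441 in the right, with red diamonds for the 7 genes, filled circles for other genes with an adjusted p under 0.05 and open circles for the rest. In the left panel 1 circle is filled, GSTA1 at 1.40, and in the right panel 53 genes are filled, on both sides of 0.

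The interferon-stimulated genes were listed because transfected RNA can induce them. After knockdown 0 of 14 passed limma's test, beside 0.77% of all genes. With so few genes called, a count of 0 was likely for any list of this size, and the part of transfection was not tested. At an unadjusted p under 0.05, 3 were higher and 2 lower, and the median was 0.09 beside −0.09 for all genes. Under NU7441 2 rose and 3 fell, beside 10.8% and 22.4% of all genes. IRF7 was at 0.80 ± 0.24 and ISG15 at 0.44 ± 0.13 after knockdown, and both rose under NU7441 (1.17 ± 0.24 and 0.66 ± 0.13). ISG15 passed after knockdown when the arrays were median-centred. The 3 that fell under NU7441 were IFIT3, IFIH1 and XAF1. After knockdown IFIT3 and XAF1 were lower than control without passing, each with an adjusted p = 0.0774 in limma. IRF7 and ISG15, which were higher, had 0.123 and 0.116.

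The genes most like each of the 7 were found among 7056 brighter, named genes by the root mean square difference over the 6 arrays, each gene centred on its control mean. Nearest to MT1X were LINC00161 (0.12) and PRAG1, a pseudokinase (0.14), and nearest to TTR were LINC00161 (0.14) and PGC, the gastric protease pepsinogen C (0.17). LINC00161 was at 198 and 211 in controls, 130 and 120 under NU7441, and 373 and 334 after knockdown. Nearest to SLPI were AGR2 (0.19) and GSTA1 (0.21). MT2A lay close to KRT8, a luminal keratin (0.05), TIMM8B (0.07) and MALT1, a paracaspase (0.07). S100P lay close to NMB, neuromedin B (0.13), SYT4 (0.19) and ADPRM (0.22). MYO6 lay close to PTMS, parathymosin (0.12), HOXB13, the homeobox factor of prostate epithelium (0.15), and TFPI, a coagulation inhibitor (0.18). PTMS was at 407 and 395 in controls, 626 and 510 under NU7441, and 251 and 266 after knockdown, so that its groups were ordered as those of MYO6 and did not overlap. MT1F had no near match: GSTA1 was the closest at 0.85.

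The genes beside the 7 on the chromosomes were read next. The neighbours were up to 3 tested genes on either side in the RefSeq gene table. Pseudogenes, small RNAs, LOC symbols and unnamed reading frames were passed over. Of 35 neighbours 0 passed limma's test after knockdown, with 3 higher and 9 lower at an unadjusted p under 0.05. Their median was −0.26 beside −0.09 for all genes. Under NU7441 3 rose and 14 fell, beside 10.8% and 22.4% of all genes, with a median of −0.51 beside −0.23. Next to MYO6, SENP6, a SUMO protease, was below control on every array of both treatments (−1.18 ± 0.23 after knockdown, adjusted p = 0.0537, and −1.87 ± 0.23 under NU7441, adjusted p = 0.00101 in limma), so that it parted from MYO6 under NU7441. On either side of SLPI, SEMG2, a semenogelin, was at 0.17 ± 0.16 after knockdown and MATN4 at −0.56 ± 0.20. Beside TTR, DSG2-AS1, a noncoding RNA, was at −1.36 ± 0.32 after knockdown (adjusted p = 0.0774 in limma) and fell under NU7441 (−1.69 ± 0.32), and TRAPPC8 on the other side was at −0.32 ± 0.30 after knockdown. On the far side of MT1X, NUP93, a nucleoporin, was at −0.35 ± 0.16 after knockdown and fell under NU7441 (−0.72 ± 0.16, adjusted p = 0.00998 in limma).

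The cells carried the markers of luminal prostate, 7 of 12 listed ones being measured, with mean control intensities of 759 for KLK3, 412 for KLK2 and 1064 for FOLH1. The summed intensity of the 7 was 3317 and 3152 in controls, 4169 and 4462 under NU7441, and 3179 and 3147 after knockdown. Not all were as bright or moved together. KRT8 and HOXB13 had control means of 85.9 and 169 and were at 0.63 ± 0.19 and −0.54 ± 0.17 after knockdown, neither passing. The 10 measured of 12 hepatocyte markers, listed because liver makes TTR, summed to 342 and 359 in controls, 280 and 300 under NU7441, and 317 and 333 after knockdown, and 0 of them passed limma's test after knockdown (1 higher and 2 lower at an unadjusted p under 0.05). Median probeset intensity was lower on the NU7441 arrays (24.6 and 26.0) and the knockdown arrays (28.4 and 27.6) than in controls (31.5 and 31.6), and 95th percentiles lay between 289 and 299. The part of this shift in the NU7441 values was not tested beyond the other scalings given above. In bulk RNA fewer cells that express a gene and less RNA per cell cannot be told apart.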

How the data were processed

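RNA of 6 C4-2 cultures was amplified, labelled with biotin and hybridised to Affymetrix arrays, per the labels' protocols. The authors deposited linear intensities, 1 per probeset and array; the sources used here do not state background correction, summarisation, scaling or build. No value was below 16. Of 44629 probesets 15835 had 1 gene symbol in the platform table, 0 had several and 28794 were unnamed here. The brightest probeset stood for each of 651 genes with more than 1, leaving 14812 genes, all with an identifier in the GRCh38.p14 gene table; 0 symbols changed. 0 columns belonged to no sample.

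Log2 values were fitted with limma 3.58.1 in R 4.3.3 over all 6 arrays (3 residual degrees of freedom, mean-variance trend, Benjamini-Hochberg over all genes, threshold 0.05, two-sided). On simulated data with the same spread in all groups, the fit was checked only for its mean fold change estimates. The accuracy of the calls is not given here. The number of arrays limits the precision (median standard error 0.22). Besides the 7 genes, the genes named were the 2 highest and 2 lowest of each list against control, the 3 most alike, the 3 tested neighbours on either side, and the genes called against both other groups with opposite signs against control; not all are described. Pseudogenes, small RNAs, LOC symbols and unnamed reading frames were passed over when neighbours and alike genes were picked. The other genes called after knockdown alone, and those beside the threshold, were named after their values were seen. The 7 genes and all lists were chosen with earlier results of these data known. Alternatives were 14: other scalings, offset, filter, trend, samples, probesets, replicate block and each array left out.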

Additional observations from a re-analysis of the deposited data

How the results depend on the processing

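For the 7 genes every knockdown difference from control and from NU7441 kept its direction in all 14 alternatives, as did the NU7441 difference from control for all but MT1F (0.15 after median centring, 0.40 without NU7441 replicate 1). That direction was fixed by the choice of genes and is no sign of stability. The NU7441 call behind the choice held in all alternatives for MT1X. MYO6 lost it without the mean-variance trend. SLPI and TTR lost it after median centring, SLPI also without control replicate 2, and TTR also without either control array. The knockdown calls behind the choice held in 7 to 9 of the 14 alternatives, those against NU7441 in 11 to 13, and the former were lost for all 7 genes without the mean-variance trend and without any 1 control or knockdown array.

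The number of genes called after knockdown, 114, became 199 with quantile normalization, 423 with median centring, 7 with 16 subtracted and 1 added, 4 without the trend, 2843 with the compared groups alone, and 1 to 2884 with 1 array left out (2 without either control array, 3 and 1 without knockdown replicate 1 or 2, 2884 and 2855 without NU7441 replicate 1 or 2). For NU7441 against control, 4917, it ranged from 868 to 7845 with 1 array left out. For knockdown against NU7441, 1284, it was 820 without the trend, 472 with the compared groups alone and 0 to 5101 with 1 array left out. A left-out array leaves 1 array assumed to vary like the other groups, and the cause of these shifts was not tested. Lower genes made up 63.2%, 67.4% and 32.8% of the calls in the 3 comparisons, 18.4%, 32.1% and 59.4% after median centring, and 63.3%, 49.0% and 43.7% after quantile normalization. With the replicate number as a block (2 residual degrees of freedom) 37 genes were called after knockdown, and MT1X, TTR and S100P lost that call; the same-numbered arrays share only a number, with correlations of their deviations of −0.07 to −0.01.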
